A study of Mus musculus with 4 samples.

Results

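The transcription factor p53 and 8 genes of its response were followed in single cells of the mouse embryonic hindlimb, to ask whether forced p21 comes with p53 target activity. The 9 genes, *Trp53*, *Mdm2*, *Ccng1*, *Plk2*, *Bax*, *Phlda3*, *Trp53inp1*, *Sesn2* and *Gdf15*, were found by symbol among the 32288 features of the count tables, and each symbol had a row. None of the 8 genes that could be tested passed between p21 and control chondrocytes, nor between p21 and control cells of the other types, and *Gdf15* was too low to test. Between cell classes, where 50.3% of all genes passed, *Mdm2*, *Ccng1* and *Sesn2* were higher in chondrocytes than in the other cells and *Plk2*, *Phlda3* and *Trp53inp1* were lower, the last not under every alternative.

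p53, encoded by *Trp53*, is held low in unstressed cells because Mdm2 marks it for degradation, and damage or other stress releases it from that control. It then binds DNA as a tetramer and raises genes that stop the cell cycle, repair damage, restrain growth or trigger apoptosis. *Cdkn1a*, which encodes the CDK inhibitor p21, is among its best known targets and acts downstream, so p21 supplied from a transgene places the arrest signal in a cell without the usual upstream trigger. p53 is mostly regulated as a protein, so the *Trp53* transcript alone says little about its activity, and the level of its targets is the usual readout in RNA data.

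Hindlimb cells of E14.5 embryos were captured in 4 libraries over 2 collections. Cells sorted as tdT+ gave S1 (first collection) and S3 (second), and tdT- cells gave S2 and S4. All embryos carried *Gli1*-CreER, a *Rosa26* lox-stop-lox tdTomato reporter and a Tet-responsive p21 transgene at the *Tigre* locus on an outbred Swiss Webster background, and all received doxycycline at 1 mg/ml from E12.5 and tamoxifen at 120 µg/g at E13.5. The p21 embryos (*Pan-Cart-p21MOE*) also carried *Col2a1-rtTA*, which switches the transgene on in a mosaic of cartilage cells, and the control embryos lacked it. The p21 cells were male in S1 and S2 and female in S3 and S4, with controls of the opposite sex in the same capture, and sex-linked transcripts gave the condition of each cell. The tdT+ and tdT- cells of a collection came from the same embryos, so the 4 values per condition stand for 2 embryo pools. For the female p21 pool the sources differ on whether it was a single embryo or several.

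Of 706 to 3912 barcodes per library that passed the filters, 2767 in all were kept with a condition. These were 98 to 784 per library for p21 and 214 to 282 for control. Their median depth by library was 16503 to 27184 UMIs (unique molecular identifiers, counted transcripts) per cell. No sex could be called for 178, 349, 455 and 2747 passing barcodes of S1 to S4, which were left out. Median depth in chondrocytes of S1 to S4 was 28646, 18044, 27011 and 24388 UMIs for p21. For control it was 19600, 14616, 21470.5 and 30975 UMIs. The part of depth in the sex calls was not tested. Chondrocytes were the 866 cells of 4 clusters that held most cartilage markers, all 12 of which were higher there than elsewhere, by 2.04 to 8.65 times. The 9 genes were left out of the clustering. The 8 chondrocyte sums, 1 per library and condition, held 35 to 270 cells and 835529 to 7722858 UMIs. Over all pairs of libraries 40 barcodes were shared, 2 of them among kept cells. In bulk sums of this kind, fewer cells of a state and less RNA per cell cannot be told apart.

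p53 recognises a pair of copies of a short motif, the p53 half-site. The promoter windows of the genes, from 250 bases before to 50 bases after the RefSeq start on GRCm38.p6, were searched for that half-site, which reads alike on both strands. Of 8 genes with a window (*Trp53inp1* had no entry), 4 held 1 half-site each, against 8.36% of all 32851 windows, and none held a pair within 13 bases, against 0.0731% of all windows. Of the 2 *Cdkn1a* windows, searched for comparison, the upstream one held such a pair and the other held no half-site. The matches are printed 5′ to 3′ on the strand of the gene with the half-site in capitals.

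*Mdm2*, chr10:117710925-117710954, minus strand: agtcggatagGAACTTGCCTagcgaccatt

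*Ccng1*, chr11:40755452-40755481, minus strand: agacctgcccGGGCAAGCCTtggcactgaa

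*Bax*, chr7:45467080-45467109, minus strand: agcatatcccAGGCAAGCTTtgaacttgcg

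*Trp53*, chr11:69580274-69580303, plus strand: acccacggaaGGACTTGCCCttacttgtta

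*Cdkn1a*, chr17:29090902-29090941, plus strand: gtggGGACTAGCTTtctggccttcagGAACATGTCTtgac

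The half-sites began 186 bases before the start in *Mdm2*, 185 in *Ccng1*, 201 in *Bax* and 75 in *Trp53*. No match lay in the windows of *Phlda3*, *Sesn2*, *Gdf15* and *Plk2*, which says only that these letters were not in those bases. The windows bear on position alone, since the libraries did not measure binding.

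The transgene was checked first. WPRE is an RNA-stabilising element carried by both the p21 and the tdTomato alleles and counted as a feature of its own. In tdT+ cells it also comes from the reporter. In tdT- cells it was still counted in control chondrocytes (S2 and S4 below), so it did not mark the p21 transgene alone there either. It stood at 1050, 1030, 1785 and 1337 CPM (UMI counts scaled to a common library total, here with TMM factors) in p21 chondrocytes of S1 to S4. In control chondrocytes it stood at 582, 111, 479 and 63.8 CPM. It was higher in p21 cells in 4 of 4 libraries and the groups did not overlap (log2 fold change 2.55, SE 0.416, adjusted p = 0.0223 by edgeR's quasi-likelihood test). The control levels were higher in tdT+ than in tdT- cells.

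*Cdkn1a*, the endogenous gene, was 52.5, 60.7, 61.7 and 64.4 CPM in p21 chondrocytes and 20.8, 51.5, 55.7 and 97.9 CPM in control chondrocytes. The groups overlapped, and the difference was 0.13 on the log2 scale with a 95% interval from -0.47 to 0.73. By the study's account the transgene's 3′ reads fall mainly in WPRE, and whether any reach *Cdkn1a* was not tested.

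*Trp53* itself, which encodes the factor, was the first of the 9 genes compared. It stood at 70.1, 84.5, 76.0 and 90.1 CPM in p21 chondrocytes of S1 to S4 and at 72.5, 102.6, 88.3 and 75.5 CPM in control chondrocytes. The ranges overlapped and p21 was the higher in 1 of 4 libraries. The difference was -0.07 on the log2 scale (95% interval -0.34 to 0.20, edgeR adjusted p = 0.898).

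*Mdm2*, the ubiquitin ligase that p53 induces as its own brake, was 92.4, 107.1, 87.7 and 83.2 CPM in p21 chondrocytes. In control chondrocytes it was 86.0, 89.2, 88.9 and 110.9 CPM. The highest value of either group lay in a different library, S2 in p21 and S4 in control, and the groups overlapped. The difference was -0.04 on the log2 scale, with an interval from -0.30 to 0.21 and an edgeR adjusted p of 0.95.

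Of the 2 genes tied to the cell cycle, *Ccng1* encodes cyclin G1, a p53-induced partner of a phosphatase that acts on Mdm2. It was 13.7, 14.3, 19.9 and 19.8 CPM in p21 chondrocytes and 12.8, 13.4, 24.8 and 21.2 CPM in control chondrocytes. Both conditions were higher in the second collection (S3 and S4) than in the first, and they overlapped. *Plk2* encodes a polo-like kinase with a role at centrosomes and in stress, and it was 21.7, 40.5, 34.2 and 34.0 CPM in p21 chondrocytes. In control chondrocytes it was 23.5, 33.2, 33.3 and 38.5 CPM, with S1 the lowest library in both conditions. The log2 differences were -0.02 for *Ccng1* (interval -0.55 to 0.51) and 0.02 for *Plk2* (interval -0.36 to 0.39).

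The next 3 genes act in cell death. *Bax* encodes the BCL2 family effector that permeabilises mitochondria, and it was 84.4, 90.4, 94.5 and 103.7 CPM in p21 chondrocytes. In control chondrocytes it was 75.9, 79.9, 92.0 and 93.8 CPM. It was the only one of the 9 genes with p21 above control in 4 of 4 libraries, by a small step each time, and the groups overlapped. The log2 difference was 0.14 (interval -0.10 to 0.38, edgeR adjusted p = 0.736, exact two-sided permutation p = 0.229 over 4 against 4).

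*Phlda3*, which encodes a p53-induced inhibitor of Akt signalling, was 23.4, 20.2, 22.4 and 21.8 CPM in p21 chondrocytes. In control chondrocytes it was 22.8, 26.4, 35.7 and 19.3 CPM. The p21 values lay within the spread of the controls, where S3 stood highest. The log2 difference was -0.23 (interval -0.63 to 0.17, edgeR adjusted p = 0.742).

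*Trp53inp1*, a p53-induced gene linked to autophagy and apoptosis, was sparse, with 5 to 48 UMIs per sum. It stood at 5.70, 5.95, 8.25 and 6.27 CPM in p21 chondrocytes and at 3.36, 6.89, 3.02 and 3.79 CPM in control chondrocytes. It was higher in p21 cells in 3 of 4 libraries, S2 being the exception, and the groups overlapped. This was the widest difference of the 8 tested genes, 0.64 on the log2 scale with an interval from -0.11 to 1.39, and it did not pass (edgeR adjusted p = 0.552, exact two-sided permutation p = 0.114). A single cell held 11% of its UMIs in p21 chondrocytes. The difference was 0.96 without the control cells of S2, 0.42 without the p21 cells of S3 and 0.35 with the class drawn by summed markers.

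The last 2 genes report stress. *Sesn2* encodes sestrin 2, which restrains growth signalling when nutrients are short, and it was 15.97, 9.52, 14.2 and 15.2 CPM in p21 chondrocytes. In control chondrocytes it was 16.8, 15.4, 10.9 and 15.8 CPM. The lowest library was S2 in p21 and S3 in control, and the log2 difference was -0.05 (interval -0.51 to 0.41).

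*Gdf15* encodes a secreted stress cytokine and was close to undetected. It had 12 UMIs in 12 of 2767 cells, 6 of them in the 533 p21 chondrocytes and 1 in the 333 control chondrocytes. These are 0.378 CPM (exact Poisson interval 0.139 to 0.822) and 0.111 CPM (interval 0.00281 to 0.619), and the intervals, which cover counting error only, overlapped. It was too low for the test in every comparison.

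**Figure D1:**
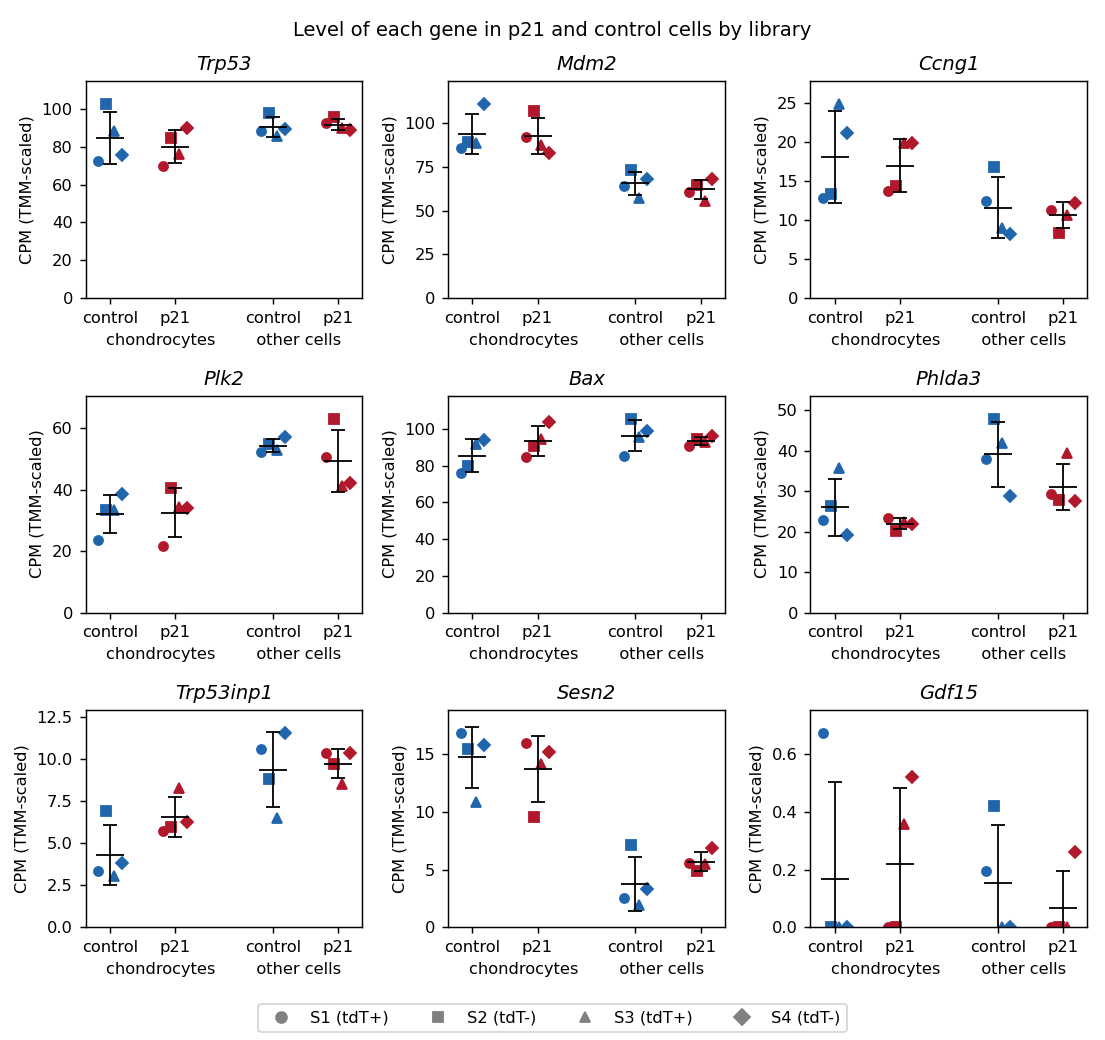
Level of each of the 9 genes in control (blue) and p21 (red) cells, in CPM with TMM scaling, for chondrocytes on the left and other cells on the right of each panel. Symbols are the 4 libraries, and bars are the mean and SD of the 4. Red and blue points overlap in each panel within either class, and *Gdf15* stays under 1 CPM.

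Of the 8 genes tested between p21 and control chondrocytes, none passed, against 0.501% of all 11767 genes tested (59 genes). None of the 8 reached an unadjusted p under 0.05 either, against 10.5% of all genes. The median log2 difference of the 8 was -0.03 and that of all tested genes was 0.00. For none of the 9 did the p21 and control values separate, against 6.38% of all tested genes. The upper ends of the intervals lay at or below 0.51 on the log2 scale for the 7 genes other than *Trp53inp1*.

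Genes that can respond to tissue handling were also summed in these chondrocytes. The 24 genes of the dissociation response, early response and heat shock genes that cell isolation can induce, summed to 13500, 14000, 10800 and 11200 CPM in p21 chondrocytes. They summed to 16400, 13300, 17500 and 17400 CPM in control chondrocytes, above p21 in S1, S3 and S4 and below it in S2, with ranges that overlapped. Their part in the values of the 9 genes was not tested. The chondrocyte zones also differed in share. Proliferative cells were 54.9%, 40.0%, 57.6% and 51.5% of p21 chondrocytes in S1 to S4. They were 74.1%, 47.2%, 65.0% and 52.2% of control chondrocytes, above p21 in each library. Hypertrophic cells were 3.92% to 20.0% of p21 and 0% to 22.8% of control chondrocytes, higher in p21 in S1, S2 and S3 and lower in S4. The part of the zones in the values of the 9 genes was not tested.

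In the cells outside the cartilage clusters, 8 genes were tested and none passed, against 0.00706% of all 14164 genes tested (1 gene). This class held 5 clusters that came over 90% from 1 library, and 97.5% to 100% of their cells were p21 cells. A fit without them was among the alternatives, and none of the 9 genes passed there. *Sesn2* came nearest, at 5.60, 4.85, 5.46 and 6.85 CPM in p21 cells and 2.55, 7.14, 1.93 and 3.33 CPM in control cells. It was higher in p21 cells in 3 of 4 libraries, with S2 the other way. The log2 difference was 0.82 (interval 0.11 to 1.52, edgeR adjusted p = 0.831, exact two-sided permutation p = 0.143), on 7 to 79 UMIs per sum. With barcodes from 5000 UMIs the difference was 0.51. *Sesn2* was the 1 gene of the 8 under an unadjusted 0.05, against 5.75% of all genes.

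*Phlda3* stood at 29.2, 27.7, 39.5 and 27.7 CPM in p21 cells and at 38.1, 47.8, 41.9 and 28.8 CPM in control cells. It was lower in p21 cells in 4 of 4 libraries, though the groups overlapped, and it did not pass (log2 difference -0.31, interval -0.67 to 0.04, edgeR adjusted p = 0.856). *Mdm2* was also lower in p21 cells in each library, by 0.07 on the log2 scale in all (-0.26 to 0.11). The other 5 tested genes differed by -0.19 to 0.07, with intervals that held 0. The values of none of the 9 genes separated, against 3.06% of all genes tested. WPRE was 0.72 higher in p21 cells on the log2 scale, with an edgeR adjusted p of 0.707.

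The difference between the p21 effects of the classes was itself tested, and none of 8 genes passed, against 0.00694% of 14400. For *Sesn2* the effect in chondrocytes was lower than that in the other cells by 0.82 on the log2 scale (interval -1.61 to -0.03, edgeR adjusted p = 0.788). *Sesn2* was the 1 gene of the 8 under an unadjusted 0.05 here, against 6.24% of all genes. For *Trp53inp1* the effect was 0.61 higher (interval -0.23 to 1.45). The other 6 differences ran from -0.10 to 0.21. Over all cells without regard to clusters, none of 8 genes passed, against 0.0269% of 14880, and the differences ran from -0.28 (*Phlda3*) to 0.27 (*Sesn2*).

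By zone, resting chondrocyte-like cells allowed a test of 5 genes and none passed, against 0.11% of 7255. *Plk2* stood at 26.1, 25.4, 35.8 and 42.2 CPM in p21 resting cells and at 29.6, 57.9, 72.3 and 81.6 CPM in control resting cells. It was lower in p21 cells in 4 of 4 libraries but the groups overlapped, through S1. The log2 difference was -0.77 (interval -1.33 to -0.20, edgeR adjusted p = 0.556, exact two-sided permutation p = 0.0857), on 8 to 71 UMIs per sum. It was the 1 gene of the 5 under an unadjusted 0.05, against 6.67% of all genes. *Sesn2*, too sparse there for the fit at 2 to 13 UMIs per sum, was 7.45, 6.35, 8.32 and 6.54 CPM in p21 and 8.06, 10.02, 8.34 and 14.65 CPM in control resting cells. It was lower in p21 cells in 4 of 4 libraries though nearly level in S3, and the groups overlapped (exact two-sided permutation p = 0.0571). In proliferative chondrocyte-like cells *Plk2* differed the other way, by 0.31 (interval -0.26 to 0.88). None of the 7 genes tested there passed, against 0.528% of 10411.

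**Figure D2:**
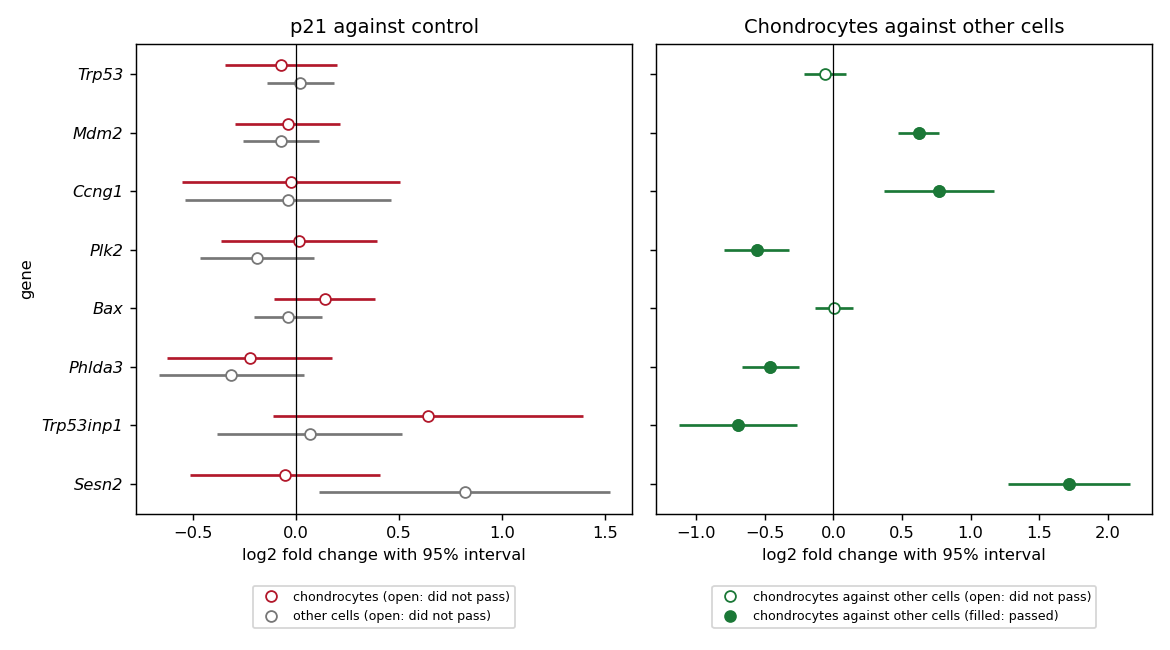
Log2 fold change of the 8 tested genes with the 95% interval, p21 against control in chondrocytes (red) and other cells (grey) on the left, and chondrocytes against other cells (green) on the right. Open points did not pass the adjusted threshold of 0.05 and filled points did. The points on the left are all open, and 6 of 8 on the right are filled.

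Within p21 embryos the transgene is a mosaic, so p21 chondrocytes with and without a WPRE count were set side by side in the tdT- libraries. In the tdT+ libraries WPRE also comes from the reporter, so the split there does not separate cells by the p21 transgene, and its values are given last. To make the calls at 1 depth, each cell was thinned to 5000 UMIs, which left out 3 cells of S2 and 14 of S4. WPRE was then found in 68.8% of p21 chondrocytes in S2 and 71.9% in S4 (82.9% and 86.3% unthinned), and in 39.4% and 31.5% of control chondrocytes (59.3% and 76.1% unthinned). In p21 cells outside the cartilage the share was 19.0% in S2 and 46.6% in S4 (49.2% and 78.6% unthinned), at median depths of 21146 and 19202 UMIs. The shares in control chondrocytes and in other cells are the background against which the split has to be read, so WPRE-positive cells are not all cells with the transgene on. These are cells of 1 pool each, and the intervals below cover counting error only.

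*Mdm2* was 82.7 CPM in the 184 WPRE-positive cells of S4 and 82.7 CPM in its 72 negative cells, a ratio of 1.00 (interval 0.83 to 1.21). In S2, with 22 and 10 cells, the ratio was 0.945 (0.584 to 1.58). *Bax* had ratios of 1.10 in S4 (0.928 to 1.32) and 1.29 in S2 (0.733 to 2.40), and *Trp53* of 1.15 (0.956 to 1.40) and 1.40 (0.770 to 2.72). For *Mdm2*, *Bax* and *Trp53* the intervals of both libraries held 1, and those of S2, on 10 negative cells, also allowed ratios over 1.5.

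*Sesn2* was 17.0 CPM in positive and 7.52 CPM in negative cells of S4, a ratio of 2.26 (1.26 to 4.39), while in S2 the ratio was 0.573 (0.111 to 3.69). *Plk2* was 26.7 CPM against 58.4 CPM in S4, a ratio of 0.458 (0.355 to 0.594), and 35.7 CPM against 52.0 CPM in S2, a ratio of 0.687 (0.319 to 1.57). The zones differed between the groups of cells in S4: 62.5% of the positive and 31.9% of the negative cells were proliferative chondrocyte-like, and 7.61% and 27.8% were hypertrophic chondrocyte-like. The part of the zones in these ratios was not tested. In the tdT+ libraries only 6 cells of S1 and 12 of S3 lacked WPRE. Apart from *Cdkn1a*, the ratios whose interval did not hold 1 there were those of *Trp53* (2.04, 1.07 to 4.37) and *Ccng1* (0.361, 0.146 to 0.974) in S1 and of *Trp53inp1* (0.167, 0.0865 to 0.338) in S3. For each of these 3 genes the interval in the other tdT+ library held 1. The *Cdkn1a* ratio was 0.355 in S1 (0.227 to 0.566) and 0.755 in S4 (0.618 to 0.927), lower in WPRE-positive cells. It was 1.85 in S2 (0.858 to 4.55) and 1.32 in S3 (0.823 to 2.26), with intervals that held 1.

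Levels by class were compared next, between the chondrocyte sum and the other-cell sum of the same library and condition. Of the 8 genes tested, 6 passed, against 50.3% of 14400 genes, so a call in this comparison was common. Cartilage was also digested longer during dissociation, and class and digestion time cannot be told apart. The clusters came from the same cells, although not from these genes.

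*Sesn2* differed most, with a lowest, median and highest level of 9.57, 15.1 and 16.7 CPM over the 8 chondrocyte sums and 1.95, 5.09 and 6.76 CPM over the 8 other sums. The values did not overlap, and the log2 fold change was 1.72 (SE 0.206, edgeR adjusted p = 1.35e-05). *Mdm2* was likewise apart, at 82.5, 87.5 and 108 CPM in chondrocytes and 54.9, 64.5 and 69.1 CPM in other cells (log2 fold change 0.62, SE 0.0702, adjusted p = 8.1e-06). Of all genes tested, 17.5% were apart in this way.

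*Ccng1* was higher in chondrocytes in 7 of 8 pairs, with medians of 17 and 11 CPM and a log2 fold change of 0.77 (SE 0.186, edgeR adjusted p = 0.0037). *Plk2* was lower in chondrocytes in 8 of 8 pairs, with medians of 33.2 and 52.5 CPM (log2 fold change -0.56, SE 0.109, adjusted p = 0.000823). *Phlda3* was lower in 8 of 8 pairs too, with medians of 22.5 and 34.3 CPM (-0.46, SE 0.0966, adjusted p = 0.00137).

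*Trp53inp1* was lower in chondrocytes in 8 of 8 pairs, at medians of 5.90 and 9.88 CPM (log2 fold change -0.70, SE 0.199, edgeR adjusted p = 0.0101). That call was lost when barcodes needed 5000 UMIs (-0.51) and at a clustering resolution of 0.5 (-0.41). *Trp53*, at -0.06 (interval -0.21 to 0.09), did not pass, but passed as lower in chondrocytes under those same alternatives (-0.29 and -0.36). *Bax* differed by 0.01 (interval -0.13 to 0.14). The p53 targets among the 9 genes thus moved in both directions between the classes.

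Levels were then followed over 13 cell types with at least 20 cells in 2 or more libraries, with p21 and control cells of a library pooled, in CPM without TMM scaling. Clusters without a name are given by number and leading genes. *Trp53* ran from 118 ± 3.15 CPM (SD, n = 2 libraries) in cluster 14, led by *Apoe* and *Cdpf1*, down to 48.6 ± 8.40 CPM (n = 2) in hypertrophic chondrocyte-like cells. Of the 12 steps between neighbours in that order, only the last, from 76.7 ± 9.53 CPM (n = 2) in cluster 11, led by *Lrrc7* and *Tnn*, was wider than the SD of either neighbour. *Bax* spanned 137 to 62.8 CPM, with 2 of 12 steps wider than the spread.

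*Mdm2* ran from 93.1 ± 6.33 CPM (n = 4) in proliferative chondrocyte-like cells to 37.9 ± 3.09 CPM (n = 3) in cluster 12, led by *Alpl* and *Thy1*. Resting chondrocyte-like cells, at 90.0 ± 16.2 CPM (n = 4), were next in order and did not differ from the first beyond their spread. Cluster 8, outside the chondrocyte class and led by *BC006965* and *Erbb4*, followed within the spread at 86.7 ± 17.7 CPM (n = 4). Hypertrophic chondrocyte-like cells, at 69.4 ± 3.34 CPM (n = 2), had a lower mean than cluster 9, led by *Isl1* and *Nkain2* (72.9 ± 11.5 CPM, n = 3). *Phlda3* had its lowest means in hypertrophic (13.3 ± 1.53 CPM, n = 2) and proliferative (22.1 ± 1.49 CPM, n = 4) chondrocyte-like cells. It reached 44.6 ± 1.44 CPM (n = 3) in the *Alpl* and *Thy1* cluster. Cluster 9 (23.2 ± 7.86 CPM, n = 3) was level with proliferative cells within the spread. Resting chondrocyte-like cells, at 22.1 to 37.2 CPM over S1 to S4, had a higher mean than cluster 9, interzone-like cells (26.7 ± 9.01 CPM, n = 2) and cluster 4 (27.6 ± 4.18 CPM, n = 4). The level of *Phlda3* thus did not follow the class in each type.

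*Ccng1* was highest in hypertrophic chondrocyte-like cells, at 39.6 CPM in S2 and 29.9 CPM in S4, and the step down to interzone-like cells at 15.6 ± 4.50 CPM (n = 2) exceeded the spread. Proliferative (15.4 ± 5.97 CPM, n = 4) and resting (13.4 ± 2.54 CPM, n = 4) chondrocyte-like cells were level with interzone-like cells and cluster 14 (15.1 ± 0.587 CPM, n = 2). *Cdkn1a* was highest in hypertrophic chondrocyte-like cells too, at 210 CPM in S2 and 247 CPM in S4. *Sesn2* was 16.4 ± 2.54 CPM (n = 4) in proliferative and 7.98 ± 0.493 CPM (n = 4) in resting chondrocyte-like cells. In each of S1 to S4 the proliferative value, 13.9 to 18.9 CPM, was above the resting value, 7.36 to 8.57 CPM. Its hypertrophic values, 33.5 CPM in S2 and 12.1 CPM in S4, were too far apart to place. Outside the chondrocyte class, *Sesn2* was 12.3 ± 5.17 CPM (n = 2) in cluster 14 and 11.7 ± 3.38 CPM (n = 2) in interzone-like cells. Both means were above that of resting chondrocyte-like cells, so its level did not follow the class in each type.

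*Plk2* was lowest in proliferative chondrocyte-like cells, at 26.4 ± 4.40 CPM (n = 4), and higher in resting ones, at 40.7 ± 10.1 CPM (n = 4). Interzone-like cells (26.5 ± 11.2 CPM, n = 2) and cluster 14 (27.3 ± 0.465 CPM, n = 2) were level with the lowest within the spread. Its highest level was 87.6 ± 11.8 CPM (n = 2) in the *Lrrc7* and *Tnn* cluster. *Trp53inp1* was 16.5 ± 5.53 CPM (n = 4) in fibroblast-like cells. It was 5.48 ± 1.76 CPM (n = 4) in proliferative and 4.8 ± 1.13 CPM (n = 4) in resting chondrocyte-like cells. Clusters 12 (5.14 ± 0.511 CPM, n = 3), 8 (4.73 ± 3.63 CPM, n = 4) and 11 (4.58 ± 1.87 CPM, n = 2) were level with these. Cluster 14 had the lowest mean, 1.73 ± 2.44 CPM (n = 2). Interzone-like and tenocyte-like cells and clusters 4, 7 (led by *Otor* and *Kcnk2*) and 9 had higher means than both zones. The hypertrophic values of *Trp53inp1* were 33.5 CPM in S2 and 5.17 CPM in S4. *Gdf15* had at most 3 UMIs in any type, in 471 proliferative and 295 resting chondrocyte-like cells.

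**Figure D3:**
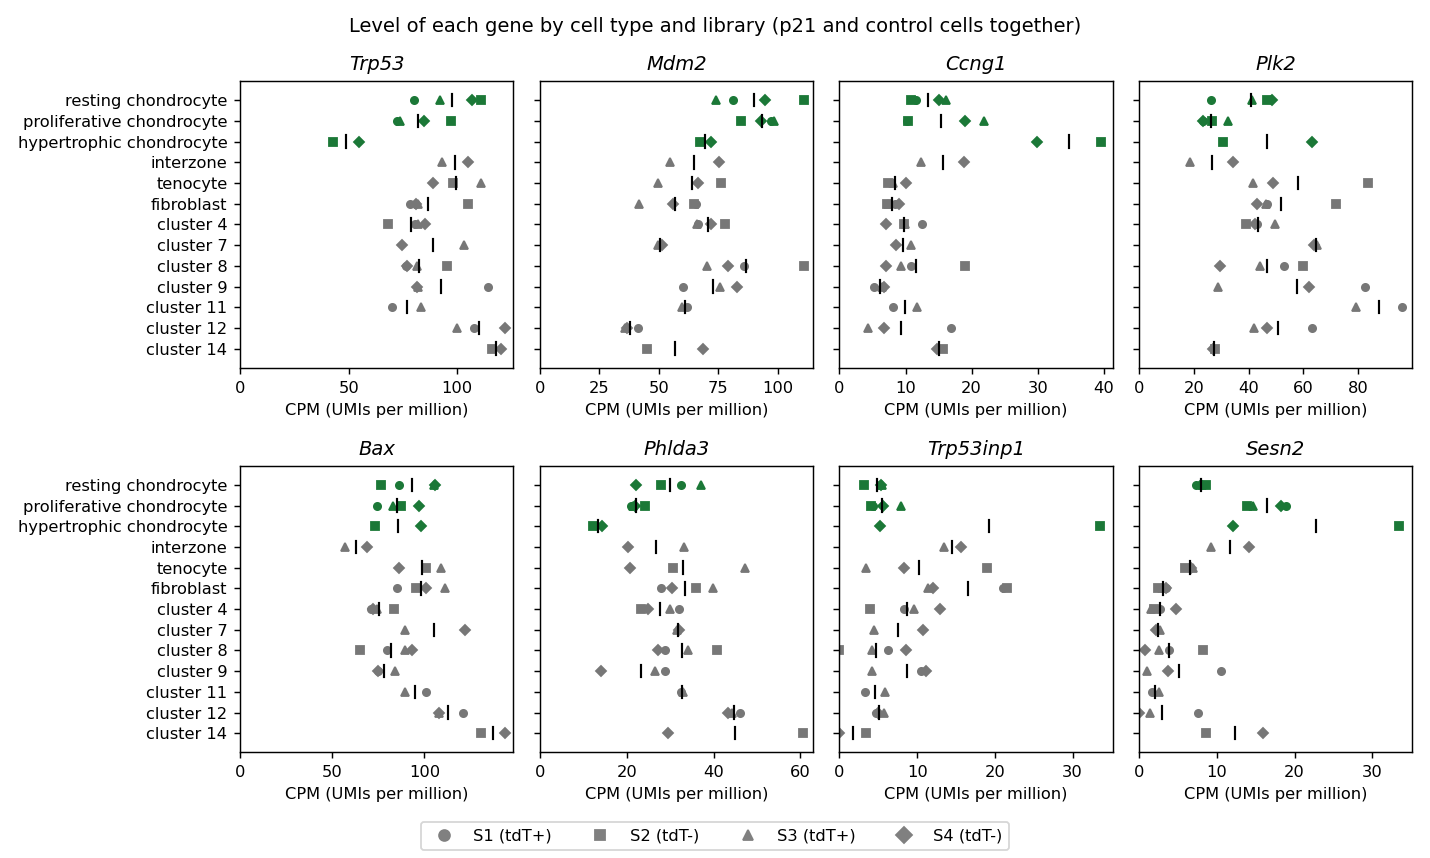
Level of each of 8 genes in 13 cell types, in CPM without TMM scaling, with 1 symbol per library and a bar at the mean over libraries. Chondrocyte-like types are green, and a name stands for cells like that type. *Sesn2* and *Mdm2* sit higher in proliferative chondrocytes than in fibroblast-like cells, *Plk2* and *Trp53inp1* lower, and *Ccng1* is highest in hypertrophic cells.

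The genes most alike in pattern were sought over 44 sums of a type and a library, 18 types in all, among 7120 other genes with a mean of at least 20 CPM. The sums share libraries and depth, and the correlations are descriptions. *Mdm2* was most like *Creb3l2* (r = 0.779) and *Swap70* (r = 0.777), and *Bax* most like *Glrx3* (r = 0.781), *Rps27l* (r = 0.778) and *Fkbp3* (r = 0.709). *Trp53* came closest to *1110038B12Rik* (r = 0.745), *Meaf6* (r = 0.706) and *H3f3b* (r = 0.675). For *Phlda3* the nearest were *Clns1a* (r = 0.643), *Sccpdh* (r = 0.630) and *Mtx2* (r = 0.614), and for *Plk2* they were *Wdr45b* (r = 0.597), *Ppic* (r = 0.595) and *Agtr1a* (r = 0.589). The other 4 of the 9 genes were below the mean level required, and none of the 5 was among the nearest 3 of another.

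The sorted fractions were also compared, since tdT marks the lineage of *Gli1*-expressing cells. Of 8 genes tested between tdT+ and tdT- chondrocytes none passed, against 0.034% of 11767 genes. The differences ran from -0.32 (*Plk2*, interval -0.70 to 0.06) to 0.23 (*Phlda3*, interval -0.17 to 0.63). With the embryo pool as a block, 21 genes passed in place of 4, and none of the 9 was among them.

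The wider pathway was described with lists of genes. Of 50 other p53 targets, 38 could be tested between p21 and control chondrocytes, 21 were higher and 17 lower in value, and none passed. Their median log2 difference was 0.05, beside 0.00 for all genes tested. The lowest p belonged to *Tnfrsf10b*, a death receptor (0.70, edgeR adjusted p = 0.429), *Ak1*, an adenylate kinase (0.48, adjusted p = 0.493), and *Ccnd2*, cyclin D2 (0.17, adjusted p = 0.583). In the other cells none of 46 passed, with a median of 0.00, and none of the regulators, BCL2 family, integrated stress response or dissociation response genes did.

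Of 20 regulators of p53, 17 were tested in chondrocytes and none passed, with a median of -0.06. The checkpoint kinases *Chek2* (-0.69, edgeR adjusted p = 0.310) and *Chek1* (-0.49, adjusted p = 0.375) and the ribosomal protein gene *Rpl11* (-0.12, adjusted p = 0.469) had the lowest p, each on the lower side. Of 13 BCL2 family genes, which hold the partners of *Bax*, 8 were tested and none passed. The median was 0.08, and the lowest p belonged to *Bak1*, the other pore-forming effector (-0.36, adjusted p = 0.670), *Bad* (0.18, adjusted p = 0.742) and *Mcl1* (-0.09, adjusted p = 0.786).

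The DREAM complex lowers cell cycle genes when p21 keeps CDKs inactive. Of 22 of its targets, all tested, 19 were lower and 3 higher in value in p21 chondrocytes, with a median of -0.28 beside 0.00 for all genes. In the other cells 16 of the 22 were higher in value and none passed.

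Of 25 genes of the integrated stress response, which holds *Sesn2*-inducing factors such as *Atf4*, 24 were tested and none passed, with 12 on either side. *Ppp1r15a*, which ends that response, was 0.38 higher on the log2 scale (edgeR adjusted p = 0.145), *Cebpb* 0.37 higher (adjusted p = 0.233) and *Psat1* 0.38 lower, at -0.38 (adjusted p = 0.372). Of the 24 dissociation response genes, 18 were lower in value in p21 chondrocytes and *Klf6* passed as lower (-0.81, SE 0.128, adjusted p = 0.0223). In proliferative chondrocyte-like cells *Hspa1a*, an inducible heat shock gene, passed as lower too (-3.00, SE 0.558, adjusted p = 0.0384).

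**Figure D4:**
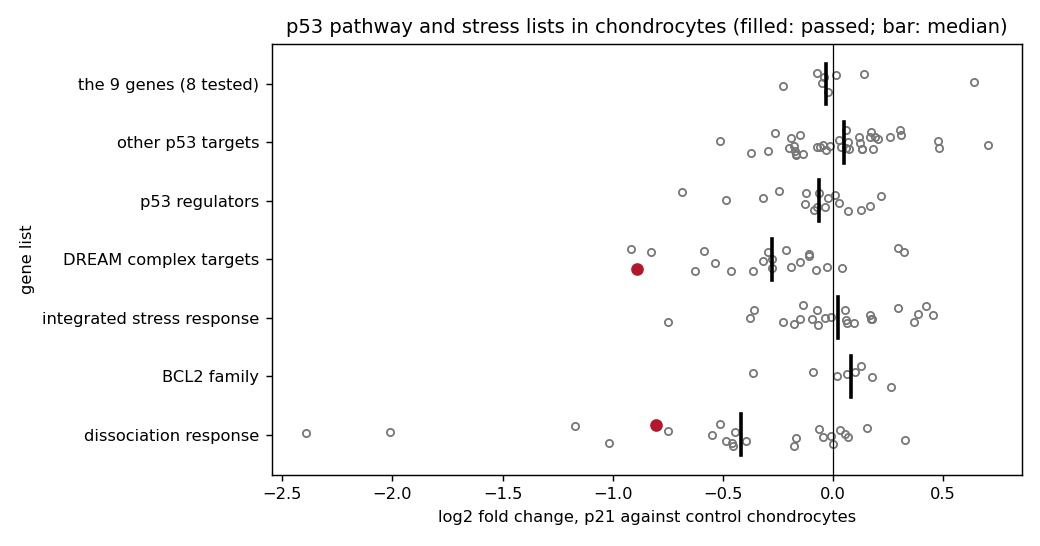
Log2 fold change of each tested gene between p21 and control chondrocytes, by list, with the list's median as a bar and filled points for genes that passed. The 9 genes and the other p53 targets centre near 0 (medians -0.03 and 0.05), and the DREAM targets and the dissociation response lie lower (-0.28 and -0.42).

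Between the classes, 17 of 48 other p53 targets tested were higher in chondrocytes and 9 lower, beside 25.0% and 25.3% of all genes. *Thbs1*, which encodes thrombospondin 1, was higher (1.34, edgeR adjusted p = 3.76e-08), and *Igfbp3*, an IGF-binding protein, was lower (-3.47, adjusted p = 6.24e-08). *Cd82*, a tetraspanin (1.09), and *Pvt1*, a long non-coding RNA (0.52), were also higher, and *Ccnd2* (-0.68) was lower. Of 17 regulators 5 were higher and 6 lower, and of 11 BCL2 family genes 3 were higher, among them *Bcl2* (0.68), and 5 lower, among them *Bak1* (-0.94). Of 25 integrated stress response genes 20 were higher in chondrocytes and none lower, with a median of 0.68 beside -0.01 for all genes, among them *Atf4* (0.83, adjusted p = 5.29e-07), *Ddit3* (1.41, adjusted p = 1.35e-06) and *Cebpb* (1.70). Of 24 dissociation response genes 19 were higher and 1 lower, with a median of 1.00. Of 22 DREAM targets 5 were higher and none lower. The part of the longer digestion in the class levels of *Sesn2*, *Mdm2* and *Ccng1* was not tested.

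Reads of 2 of the 9 genes are less certain by position. *Bax*, on chromosome 7 of GRCm38 from 45461697 to 45466898, is overlapped on the same strand by *Gm45808*. *Sesn2*, on chromosome 4 from 132492032 to 132510501, is overlapped by *Gm12981* on the same strand. The other 7 have no overlapping gene in that annotation.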

How the data were processed

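Per the labels and methods, reads of 10x libraries were aligned by the authors with Cell Ranger 7.2.0 to GRCm38 with transgene sequences, and UMI counts per gene and barcode were deposited without normalization. Barcodes with 1000 UMIs, 500 genes and at most 10% mitochondrial UMIs were kept. Sex was read from at least 2 UMIs of sex-linked genes with 80% on 1 side, and gave the condition by the study's multiplexing, not by the deposited labels. Mixed-sex barcodes and the top 5% of Scrublet scores were removed. Clustering used 30 components of 2000 genes in scanpy 1.11.5 with the Leiden method of igraph 0.11.9 (resolution 1), without the listed and the cell cycle genes. A cluster was called chondrocyte where 7 of 12 markers were each found in 10% of cells and raised 1.5 times over the remaining cells, unless it was shallow, had fewer than 20 cells or matched another type better, which left out 1 cluster of 12 cells with all 12 markers. These limits were set once clusters had been seen.

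UMI sums per library, condition and class were tested with edgeR 4.0.16 in R 4.3.3 (filterByExpr, TMM, glmQLFTest, Benjamini-Hochberg over all genes, threshold 0.05), with the sorted fraction as covariate, or with library and condition as a block between classes. Intervals are 95% t intervals of that fit. limma 3.58.1 and DESeq2 1.42.0 were alternatives. The exact permutation test of 4 against 4 cannot go below p = 0.0286, and p-values treat the 4 sums per condition as independent although they come from 2 pools. The script was tested on simulated counts. Both fractions of an embryo pool share animals, and their deviations correlated at r = 0.0801 to 0.365. The p21 and control cells of a library correlated at r = -0.0393 to 0.0899, so no pairing by library was used.

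The genes, lists, tests and alternatives were chosen with earlier results of these data known. The genes named are the 9, *Cdkn1a* and the transgene features, from each list up to 5 genes that passed or else 3 of lowest p, and the 3 genes most alike in pattern. Of these, 2 genes are not reported here. The authors' cell annotation was not used here. Promoter sequences are from RefSeq.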

Additional observations from a re-analysis of the deposited data

Results flagged for a closer look

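Of 32 groups of 4 sums of the 9 genes whose highest value was at least 5 CPM, 2 held a library far from the other 3. *Mdm2* in control chondrocytes was 110.9 CPM in S4 and 86.0 to 89.2 CPM in the other libraries. *Phlda3* in p21 cells outside the cartilage was 39.5 CPM in S3 and 27.7 to 29.2 CPM in the others. Chance alone gives about 1 such group in 20.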

How the results depend on the processing

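In every comparison of p21 with control, and between fractions, none of the 9 genes passed under any alternative run, and 6 of 8 passed between classes under each, though not always the same 6 (*Trp53* replaced *Trp53inp1* in 2). Without the filter on low counts, 432 genes of the whole table passed between p21 and control in chondrocytes, 301 in other cells, 460 in all cells, 198 for the difference between classes, 195 between fractions, 93 in resting and 322 in proliferative cells. DESeq2 called 135 in chondrocytes, 8 in other cells, 51 in all cells, 7 for the difference and 11 between fractions, and limma-voom 96 in chondrocytes. With the fractions of a pool summed, 3 passed in chondrocytes and 0 in other and in all cells, and with sex as a covariate 2 in other cells. With the library as a replicate block, 0 passed in all cells, 4 in resting and 18 in proliferative cells, and with the embryo pool as a replicate block 21 between fractions. For the difference between classes 0 passed with barcodes from 5000 UMIs, without Scrublet removal, at resolution 2 and without clusters of 1 library, and 2 at resolution 0.5 and with the class from summed markers. Between fractions 2 passed without Scrublet removal and 1 with the class from summed markers. Leaving out 1 sum at a time gave 3 to 50 genes in chondrocytes (3 without p21 S4, 4 without p21 S3, 12 without control S1, 23 without control S4), 1 to 4 in other cells, 0 to 4 in all cells, 0 to 3 for the difference, 1 to 9 between fractions, 3 to 14 in resting and 2 to 52 in proliferative cells. The cause of these moves was not tested. *Plk2* in chondrocytes ranged from -0.13 to 0.53 on the log2 scale over the alternatives and *Ccng1* from -0.36 to 0.19. *Trp53inp1* in chondrocytes, at 5 to 48 UMIs per sum, and *Gdf15*, at 0 to 4, are limited by depth. The class from summed markers and the fit without clusters of 1 library were chosen after seeing the data.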
